A study of Mus musculus with 10 samples.

Results

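Transglutaminases and the scaffold proteins they cross-link were followed in mouse ear skin through 8 genes: Tgm1, Tgm3, Tgm5, Lor, Ivl, Evpl, Ppl and Kprp. They were taken by gene symbol from 9779 genes present in both deposited tables of mouse expression values, and 8 of 8 were found. The members were chosen with earlier results of these data known. RNA came from C57BL/6 mice aged 6 to 8 weeks. Imiquimod, which activates Toll-like receptors and inflames mouse skin much as psoriasis does, was given topically for 6 days to both treated groups, so that neither of them is free of it. The DMSO group (n = 4 libraries) had the solvent DMSO beside it, and the benzamil group (n = 4) had benzamil, a relative of amiloride and an inhibitor of epithelial sodium channels. The third group (n = 2) was untreated, so imiquimod and DMSO cannot be told apart where the DMSO group is set against it. Sample labels give ear skin throughout, whereas the series' design text names back skin for the untreated control, so body site and treatment cannot be told apart in any comparison with untreated skin. The labels do not say that replicates are separate animals, so p-values measure the spread between these libraries, which may be technical.

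The cornified envelope is the protein shell that replaces the plasma membrane of a keratinocyte as it dies at the skin surface. Envoplakin and periplakin are laid down first beneath the membrane with involucrin, transglutaminases then join these proteins by isopeptide bonds, and loricrin is added later as the main reinforcing protein. Involucrin and loricrin are used as markers of the spinous and granular layers. Loss of TGM1 activity causes lamellar ichthyosis in people, and loss of TGM5 activity causes acral peeling skin.

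From the DMSO group to the benzamil group, members differed in opposite directions. Tgm1 fell from a mean of 48.0 to 5.17 CPM (reads scaled for library depth), while Lor, Ppl and Kprp rose by 2.05-, 1.74- and 1.97-fold, and Tgm3, Tgm5, Ivl and Evpl did not pass the test. In bulk skin fewer cells of a type and less RNA per cell cannot be told apart. Of the 8 members 3 were called higher and 1 lower with benzamil than with DMSO, against 9.91% of all 5245 tested genes called higher and 12.1% called lower at an adjusted p under 0.05. Libraries of the treated groups did not overlap for 3 members, Lor and Ppl being higher (11.1% of all tested genes) and Tgm1 lower (13.4%). Ivl and Evpl were higher with DMSO than in untreated skin, and Ivl was higher with benzamil too.

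Depth was low: DMSO libraries held 259262 to 935714 reads, benzamil libraries 138440 to 375455, and those of untreated skin 74614 and 71144. Levels are CPM after TMM scaling of the libraries, and a single read was worth from 1.04 CPM (DMSO library 1) to 14.8 CPM (untreated library 2). Where a library had 0 reads of a gene, its limit is the CPM of 3 reads, and limits and intervals cover counting error only. The libraries come from a 3' mRNA kit, so reads are not divided by gene length and levels are compared between groups within a gene, not between genes. All 4 basal and all 4 suprabasal keratinocyte markers were present. Of 8 hair follicle markers 6 were missing from at least 1 table, as were 3 of 3 endothelial markers. Ribosomal RNA took 22.1% to 28.8% of reads in the DMSO group and 31.0% to 45.7% in the benzamil group.

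Promoter windows show what is written upstream of the genes whose changes are compared below: Lor, which rose with benzamil, and Ivl and Tgm3, which did not pass. RefSeq windows on GRCm38.p6, the assembly also called mm10, were found for 5 of 8 members, and the 250 bases before the start site are printed 5′ to 3′ on the transcribed strand. Those of Evpl, Ppl and Kprp were not used here. Capitals mark TGANTCA, the consensus of AP-1 factors, which reads the same on both strands, and TATAAA, the TATA box, sought on the transcribed strand. The windows are Lor at chr3:92083143-92083392 (minus strand), Ivl at chr3:92573736-92573985 (minus strand), and Tgm3 at chr2:130012090-130012339 (plus strand).
Lor: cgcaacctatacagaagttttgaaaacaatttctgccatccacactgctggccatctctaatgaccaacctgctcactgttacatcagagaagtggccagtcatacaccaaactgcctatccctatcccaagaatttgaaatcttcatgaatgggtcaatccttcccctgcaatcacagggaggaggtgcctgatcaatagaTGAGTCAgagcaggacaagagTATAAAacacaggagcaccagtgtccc
Ivl: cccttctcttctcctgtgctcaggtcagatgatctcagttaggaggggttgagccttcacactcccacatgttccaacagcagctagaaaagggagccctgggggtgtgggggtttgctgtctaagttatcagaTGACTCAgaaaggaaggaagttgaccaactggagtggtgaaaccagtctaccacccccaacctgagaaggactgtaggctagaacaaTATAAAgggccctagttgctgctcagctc
Tgm3: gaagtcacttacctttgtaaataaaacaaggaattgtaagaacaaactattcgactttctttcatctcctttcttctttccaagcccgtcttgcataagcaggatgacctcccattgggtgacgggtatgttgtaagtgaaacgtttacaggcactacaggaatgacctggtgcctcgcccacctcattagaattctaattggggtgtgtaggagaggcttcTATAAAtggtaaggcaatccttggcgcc
Lor holds TGAGTCA beginning 48 bases before its start site and Ivl holds TGACTCA beginning 116 bases before it. TATAAA begins 27 bases upstream in Lor, 29 in Ivl and 28 in Tgm3. Neither motif is written in the window of Tgm5 or in either window of Tgm1, whose windows lie within its longer GENCODE gene model and are not printed. Of 32851 RefSeq promoter windows of 250 bases, 6.75% hold TGANTCA and 7.59% hold TATAAA. The Grainyhead-type motif AACCNGTT, sought on both strands, is in 1.79% of the windows and in none of the members' windows. Lor and Ivl thus share both marked motifs and differed in their response to benzamil.

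Tgm1 (ENSMUSG00000022218, chromosome 14, 55700009 to 55713926, mm10, minus strand) encodes the membrane-anchored transglutaminase of the epidermis. It had 72, 16, 11 and 12 reads in DMSO libraries 1 to 4 and 2, 2, 0 and 1 in benzamil libraries 1 to 4, and untreated libraries 1 and 2 had 1 and 0. In CPM these were 74.8, 43.2, 40.5 and 33.3 with DMSO and 6.1, 6.7, 0 and 7.9 with benzamil, where the 0 of library 3 allows up to 20.01 CPM. Every DMSO library was above every benzamil library and above both untreated ones, of which library 2, at 0 reads, allows up to 44.5 CPM. The means of 48.0 ± 18.4 (DMSO) and 5.17 ± 3.53 CPM (benzamil, SD, n = 4 and 4) gave a log2 fold change of -3.14 ± 0.55 (SE, edgeR adjusted p = 0.000261). Pooled over libraries, 111 reads against 5 gave a level 10.2-fold lower, with a 95% counting interval of 4.25 to 32.1. Against untreated skin Tgm1 with DMSO gave 2.80 ± 1.10 and did not pass (edgeR adjusted p = 0.0727). That comparison rests on 1 untreated read, 8.01-fold in pooled reads (95% counting interval 1.41 to 319). With benzamil against untreated skin the difference was -0.33 ± 1.64, too imprecise at this depth to show a difference in either direction.

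Tgm3 (ENSMUSG00000027401, chromosome 2, 130012349 to 130050399, plus strand) encodes a cytosolic transglutaminase, activated by proteolysis, of the upper epidermis and hair follicle. Its levels were 187, 219, 166 and 169 CPM in DMSO libraries 1 to 4, 194, 160.3, 287 and 413 CPM in benzamil libraries 1 to 4, and 80.8 and 163 CPM in untreated skin. Benzamil libraries 3 and 4 were above all DMSO libraries, and library 2 was below them all. The change with benzamil was 0.42 ± 0.24 and did not pass (edgeR adjusted p = 0.221), and neither did DMSO over untreated at 0.62 ± 0.44 (edgeR adjusted p = 0.338). Benzamil over untreated gave 1.05 ± 0.44 (edgeR adjusted p = 0.185). Tgm5 (ENSMUSG00000053675, chromosome 2, 121046111 to 121085841, minus strand) encodes a transglutaminase of differentiating keratinocytes and was close to the detection limit. It had 25, 12, 7 and 9 reads with DMSO, 7, 15, 3 and 5 with benzamil, and 4 and 0 in untreated skin, where the 0 allows up to 44.5 CPM. With benzamil it gave 0.28 ± 0.43 (edgeR adjusted p = 0.68).

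Lor (ENSMUSG00000043165, chromosome 3, 92080271 to 92083142, minus strand) encodes loricrin, a glycine-rich protein and the main component of the mature envelope. Levels were 1753, 675, 1935 and 1774 CPM in DMSO libraries 1 to 4 and 3060.2, 3165, 3909 and 2414 CPM in benzamil libraries 1 to 4. The treated groups did not overlap, and DMSO library 2 lay far below the other 3. The means of 1534 ± 578 and 3137 ± 612 CPM (SD, n = 4 and 4) gave a log2 fold change of 1.03 ± 0.29 (edgeR adjusted p = 0.0117), about 2.05-fold. Untreated libraries 1 and 2 were far apart at 875 and 2521 CPM, with 3 of the 4 DMSO libraries between them and DMSO library 2 below both. DMSO over untreated was -0.14 ± 0.36 (edgeR adjusted p = 0.818) and benzamil over untreated 0.89 ± 0.38 (edgeR adjusted p = 0.187). Both turn on the untreated libraries. Without untreated library 1 benzamil over untreated became 0.41 (edgeR adjusted p = 0.564) and without untreated library 2 it became 1.93 (edgeR adjusted p = 0.0276), while DMSO over untreated became -0.63 and 0.92, neither passing.

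Ivl (ENSMUSG00000049128, chromosome 3, 92570902 to 92573735, minus strand) encodes involucrin, an early scaffold to which ceramides are attached. Levels were 203, 140.5, 169 and 133 CPM with DMSO and 158, 187, 153 and 87.4 CPM with benzamil, with the groups overlapping, against 26.9 and 29.7 CPM in untreated skin. The change with benzamil was -0.11 ± 0.23 (edgeR adjusted p = 0.772). Ivl rose with DMSO over untreated skin by 2.52 ± 0.57 (edgeR adjusted p = 0.00324) and was higher with benzamil than in untreated skin by 2.41 ± 0.59 (edgeR adjusted p = 0.0194). Untreated skin held 4 Ivl reads in all, so the pooled ratios of 6.15 for DMSO and 5.56 for benzamil have wide counting intervals of 2.38 to 22.7 and 2.12 to 20.7. Those 2 comparisons share the untreated libraries. The benzamil over untreated call was lost without untreated library 1 (adjusted p = 0.107) or untreated library 2 (adjusted p = 0.087).

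Kprp (ENSMUSG00000059832, chromosome 3, 92823074 to 92827247, minus strand) encodes keratinocyte proline-rich protein, expressed in the upper epidermis. Levels were 254, 86.4, 331 and 161 CPM in DMSO libraries 1 to 4 and 519, 427, 447 and 206 CPM in benzamil libraries 1 to 4. Benzamil libraries 1 to 3 were above all DMSO libraries, and benzamil library 4 lay within their range. The means were 208 ± 107 and 400 ± 135 CPM (SD, n = 4 and 4), a change of 0.98 ± 0.30 (edgeR adjusted p = 0.0198). The call was lost without DMSO library 2 (0.0822), DMSO library 4 (0.0592), benzamil library 1 (0.0846) or benzamil library 3 (0.063), these being adjusted p-values. In untreated skin Kprp stood at 53.8 and 193 CPM, and DMSO over untreated gave 0.78 ± 0.56 (edgeR adjusted p = 0.346). Benzamil over untreated gave 1.76 ± 0.54 (edgeR adjusted p = 0.0607).

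Lor, Ivl and Kprp lie on the same strand within 747 kb of chromosome 3, in the epidermal differentiation complex, a cluster of envelope genes. Of 27 tested genes between the outer ends of Lor and Kprp, 11 were called higher and 9 lower with benzamil than with DMSO. Over all tested genes the shares were 9.91% and 12.1%. Between DMSO and untreated skin 11 were called higher and 0 lower in the same stretch, against 9.93% and 8.45% of all tested genes. Genes of this one locus therefore moved both ways with benzamil, and Ivl, which lies between the other pair, was among the 7 without a call.

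Evpl and Ppl encode envoplakin and periplakin, plakin proteins that bind each other, link keratin filaments to the desmosome and underlie the early envelope. Ppl (ENSMUSG00000039457, chromosome 16, 5086291 to 5132421, minus strand) was at 364, 394, 430.4 and 422 CPM with DMSO and 728, 668, 807 and 588 CPM with benzamil. The treated groups did not overlap and each was tight. The means of 403 ± 30.2 and 698 ± 92.9 CPM (SD, n = 4 and 4) gave 0.80 ± 0.19 (edgeR adjusted p = 0.00453). Untreated libraries were at 349.9 and 667 CPM, and neither DMSO (-0.33 ± 0.27, edgeR adjusted p = 0.412) nor benzamil (0.47 ± 0.27, edgeR adjusted p = 0.361) differed from them by the test.

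Evpl (ENSMUSG00000034282, chromosome 11, 116220559 to 116238077, minus strand) was at 175, 143, 114 and 142 CPM with DMSO and 130.4, 134, 127 and 199 CPM with benzamil, and benzamil library 4 stood above the other 3. The change with benzamil was -0.03 ± 0.23 (edgeR adjusted p = 0.948). In untreated skin Evpl was at 26.9 and 74.2 CPM, from 2 and 5 reads, below every treated library. DMSO over untreated gave a rise of 1.56 ± 0.49 (edgeR adjusted p = 0.029), lost without DMSO library 1 (adjusted p = 0.0611) and without untreated library 1 (1.07, adjusted p = 0.231). Benzamil over untreated was 1.53 ± 0.51 and did not pass (edgeR adjusted p = 0.0844). In DMSO over untreated, 2 of the 8 members were called higher and 0 lower, against 9.93% and 8.45% of all tested genes. Tgm1, Tgm3, Ivl and Evpl (4 of 8) lay above untreated skin without overlap and 0 below it, against 29.5% and 18.6%. For Tgm1 the limit of untreated library 2, 44.5 CPM at 0 reads, lies above DMSO libraries 2 to 4 (43.2, 40.5 and 33.3 CPM). In benzamil over untreated 1 member was called higher and 0 lower, against 2.44% and 1.56%. Ivl, Evpl and Kprp (3 of 8) lay above without overlap and 0 below, against 19.5% and 12.9%.

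**Figure D1:**
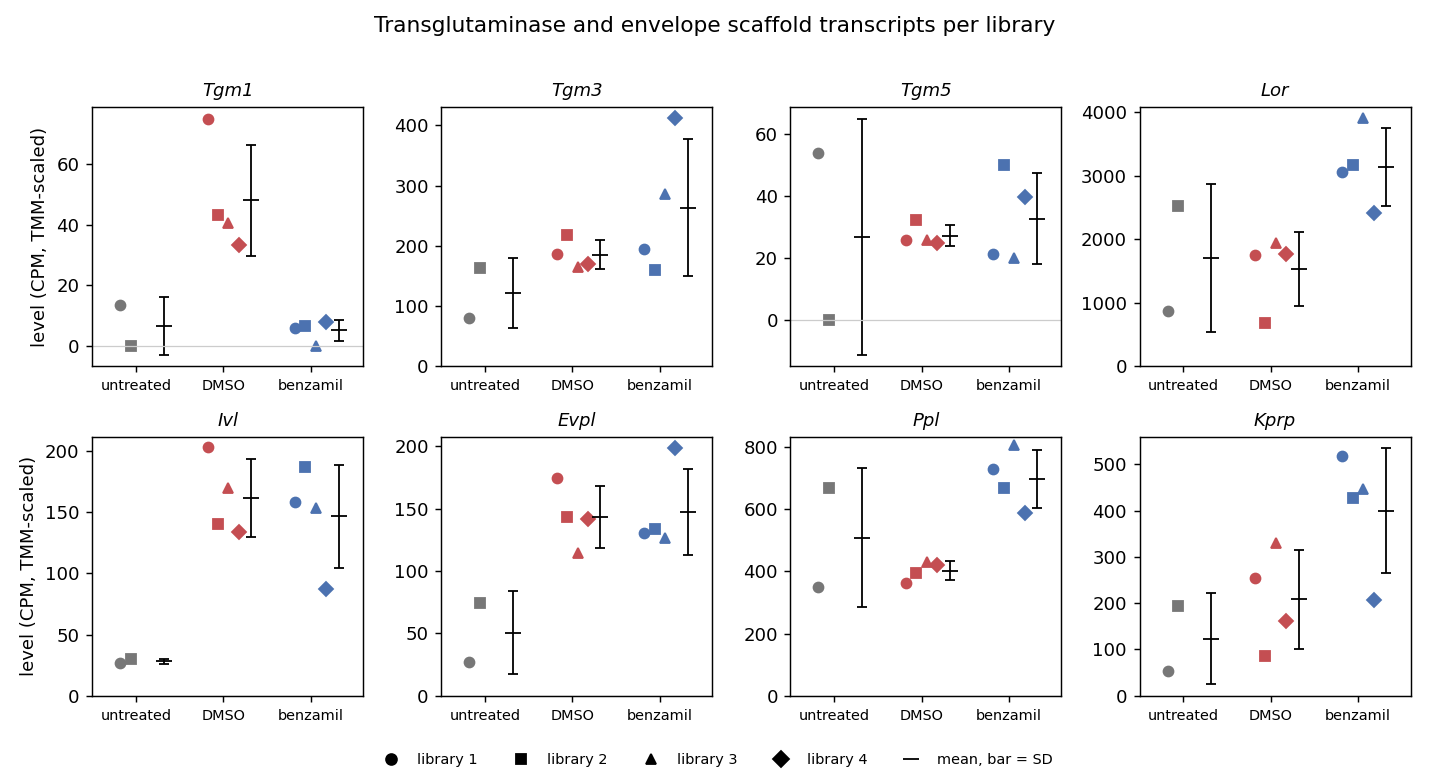
Level of each of the 8 genes in every library, in TMM-scaled CPM on linear axes, for untreated skin (n = 2) and the DMSO and benzamil groups (n = 4 each), with the mean and SD beside the points. Tgm1 is low in every benzamil library (0 to 7.9 CPM), Lor and Ppl lie above all DMSO libraries, and Ivl and Evpl overlap between the treated groups.

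**Figure D2:**
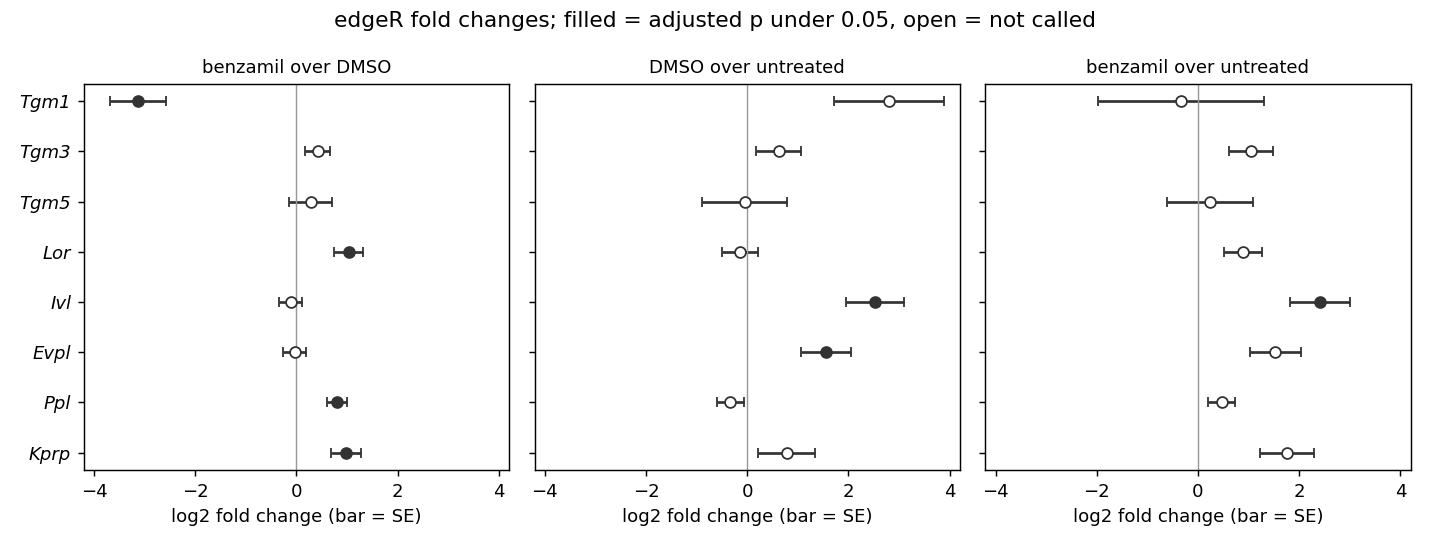
Log2 fold change with its standard error for each gene in the 3 comparisons from the edgeR fit, where filled points passed at an adjusted p under 0.05. The comparisons share libraries, so the panels are not independent. Tgm1 (-3.14), Lor (1.03), Ppl (0.80) and Kprp (0.98) are filled for benzamil over DMSO, Ivl (2.52) and Evpl (1.56) for DMSO over untreated, and Ivl (2.41) for benzamil over untreated.

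A set of 3 ratios within a library, which do not depend on how libraries are scaled, compared members in pairs, with 0.5 reads added to each gene. Tgm1 against Tgm3 sets the membrane-anchored enzyme against the cytosolic one. Its log2 ratio of reads was -1.32, -2.30, -1.98 and -2.30 in DMSO libraries 1 to 4 and -4.69, -4.28, -6.44 and -5.13 in benzamil libraries 1 to 4, with no overlap. Benzamil library 3 had 0 Tgm1 reads, so its value is set by the reads added and is not a measured ratio, and the same holds for untreated library 2. The mean difference was -3.16 (exact two-sided permutation test, n = 4 and 4, p = 0.0286, and 0.0429 adjusted over the 3 ratios). That p is the smallest this design allows. With 1 read added the difference was -2.72 at the same p. Without benzamil library 3 it was also -2.72, but at p = 0.0571 by the exact test, the smallest that 3 libraries against 4 can give. Untreated skin gave -2.12 and -4.52, across the gap between the treated groups.

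For Ivl against Lor, the early scaffold against the late one, the log2 ratio was -3.11, -2.25, -3.50 and -3.72 with DMSO and -4.27, -4.07, -4.64 and -4.73 with benzamil. Again the treated groups did not overlap, with a difference of -1.28 (exact two-sided permutation test, n = 4 and 4, p = 0.0286, adjusted 0.0429). Untreated skin lay lower still in 1 of its libraries, at -4.71 and -6.09. The difference of DMSO from untreated was 2.26, where the exact p of 0.133 is the smallest that 4 libraries against 2 can give.

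Evpl against Ppl, the heterodimer partners, gave -1.06, -1.45, -1.90 and -1.57 with DMSO and -2.47, -2.31, -2.64 and -1.55 with benzamil. Benzamil library 4 lay among the DMSO libraries, and the difference of -0.75 did not pass (exact two-sided permutation test, n = 4 and 4, p = 0.0857, adjusted 0.0857). Untreated skin was at -3.41 and -3.05, below every treated library, and DMSO differed from it by 1.73 (exact p = 0.133, the smallest possible).

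**Figure D3:**
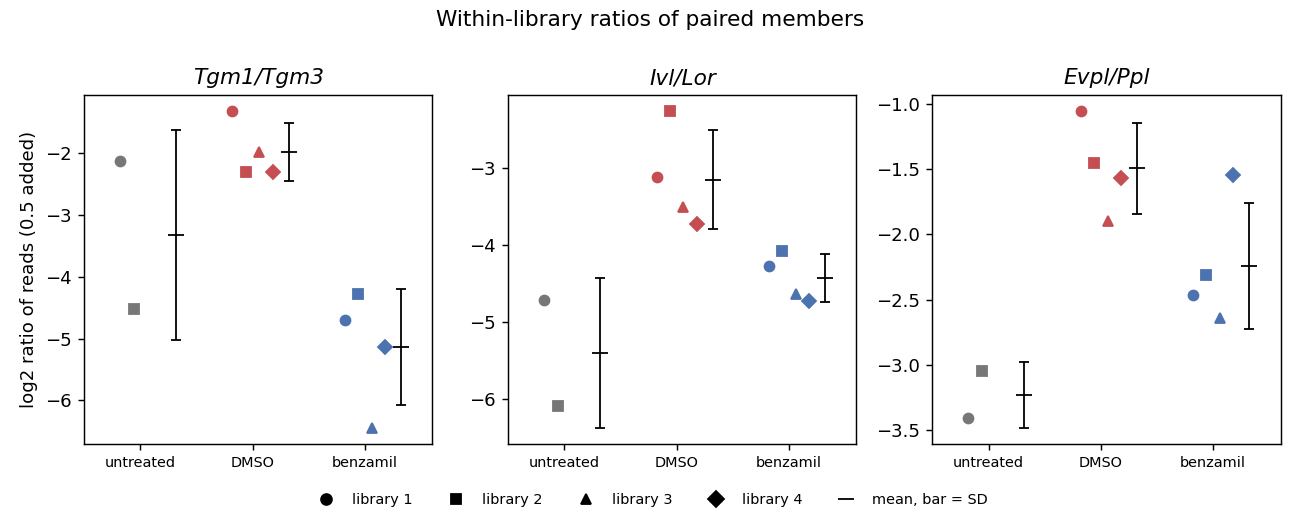
Log2 ratio of reads within each library for Tgm1/Tgm3, Ivl/Lor and Evpl/Ppl, with 0.5 reads added to each gene, by group with mean and SD. DMSO and benzamil libraries separate for Tgm1/Tgm3 (differing by -3.16) and Ivl/Lor (by -1.28), and overlap for Evpl/Ppl through benzamil library 4.

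Markers of the suprabasal layers differed between the groups too. The summed level of the 4 suprabasal markers (Krt1, Krt10, Krt2 and Krtdap) was 10135 and 13111 CPM in untreated skin, 14599 to 30756 CPM with DMSO and 36744 to 53312 CPM with benzamil. Of those 4, Krt2 was called higher with benzamil (1.65 ± 0.28, edgeR adjusted p = 0.000207) and 3 were not called, Krt1 having the opposite sign (-0.56 ± 0.23, edgeR adjusted p = 0.0795). DMSO library 2, lowest for Lor and Kprp, was also the lowest DMSO library in that sum.

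The members were therefore also expressed per 1000 reads of these markers, a measure chosen after the levels had been seen and given without a test. Lor stood at 46.3 to 78.4 with DMSO and 45.3 to 86.1 with benzamil, Ppl at 11.8 to 27.0 and 11.0 to 18.2, and Kprp at 5.92 to 11.9 and 3.87 to 11.6. On this measure the treated groups overlapped for each of the 3 genes that rose in CPM. Untreated skin stood at 86.3 and 192 for Lor and 34.5 and 50.9 for Ppl, above every treated library. For Kprp it stood at 5.31 and 14.7. Of the 4 markers 3 were called higher with DMSO than in untreated skin, so the measure itself shifts between groups. Whether the members follow these markers was not tested. Tgm1 stayed apart, at 1.46 to 2.96 with DMSO and 0 to 0.182 with benzamil. Ivl, at 5.89 to 9.62 and 1.64 to 5.09, and Evpl, at 4.10 to 9.81 and 2.64 to 3.72, were lower with benzamil without overlap, although neither passed the test in CPM.

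**Figure D4:**
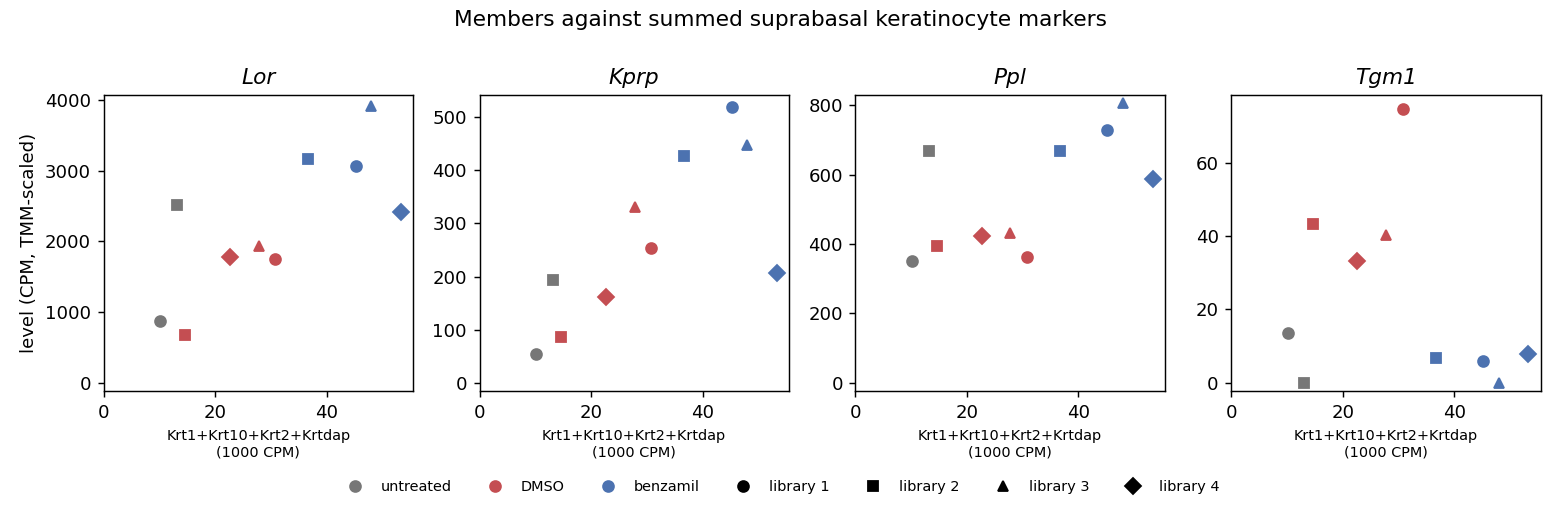
Level of Lor, Kprp, Ppl and Tgm1 in each library (CPM) against the summed level of Krt1, Krt10, Krt2 and Krtdap (in 1000 CPM), coloured by group. Benzamil libraries lie to the right in every panel (36744 to 53312 CPM), high for Lor and Ppl and near 0 for Tgm1.

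Other cell markers also differed between the treated groups. The 5 neutrophil-list genes in both tables, which include S100a8 and S100a9 and so also report on keratinocytes, summed to 11121 to 18340 CPM with DMSO and 213 to 4257 CPM with benzamil, with 4 of 4 tested called lower. Csf3r and Ly6g, which define neutrophils, were not in both tables. Sebaceous markers summed to 1471 to 3029 CPM with DMSO and 4260 to 7815 CPM with benzamil (5 of 6 tested called higher), skeletal muscle markers to 194 to 1174 and 683 to 1586 CPM (7 of 10 higher), and fibroblast markers to 532 to 1048 and 714 to 2263 CPM (2 of 6 higher). Of the hair follicle list only 2 genes, Tchh and Gata3, were in both tables. Their sum was 373 to 569 CPM with DMSO and 786 to 874 CPM with benzamil, without overlap. Gata3, the 1 tested, was called higher and made up most of that sum (means of 457 and 805 CPM). It is also on the list of transcription regulators of cornification, so the sum does not report on follicles alone. Untreated skin differed from the DMSO group by more in several lists. Its fibroblast markers summed to 8335 and 19005 CPM (6 of 6 tested lower with DMSO), its skeletal muscle markers to 2833 and 2853 CPM (7 of 10 lower) and its neutrophil-list genes to 44.5 and 215 CPM (4 of 4 higher). The 2 untreated libraries also stood apart from each other and from the treated ones on the second principal component, at -42.0 and 61.8, against -20.3 to 10.9. These shifts stand beside the rises of Ivl, Evpl and the gene lists over untreated skin. Their part in the changes of the members was not tested.

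The wider envelope pathway was described through 5 gene lists, each beside all 5245 tested genes, whose median log2 fold change with benzamil was -0.0055. Of all tested genes 9.91% were called higher and 12.1% lower with benzamil, and 9.93% and 8.45% with DMSO over untreated. Other cornified envelope substrates changed in both directions: of 59 listed, 50 were tested, 16 were called higher and 25 lower with benzamil, with a median of -0.84. The filaggrin-family gene Flg2 rose by 2.81 ± 0.28 (edgeR adjusted p = 4.87e-07), from 217 ± 112 to 1493 ± 516 CPM. Sprr2b, which encodes a small proline-rich cross-linking substrate, had 415 reads with DMSO and 0 with benzamil. Against untreated skin 31 of the 50 were higher and 2 lower with DMSO, with a median of 2.29, against 0.18 over all genes. Flg2 was among the 2 lower (-3.41 ± 0.32, edgeR adjusted p = 4.63e-08), and stood at 2266 ± 184 CPM in untreated skin (SD, n = 2). Sprr, Stfa and Lce genes have near-identical copies among which reads may be split.

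Among 11 tested genes of the transglutaminase family and its protease control, 0 were higher and 3 lower with benzamil (median -0.11). The shares over all tested genes were 9.91% and 12.1%. Cstb, which encodes the cathepsin inhibitor cystatin B, fell by 1.74 on the log2 scale (± 0.27, edgeR adjusted p = 5.87e-05), from 410 reads to 54, and the calcium-dependent protease gene Capn2 by 1.39 (± 0.33, edgeR adjusted p = 0.00421). With DMSO over untreated 4 of the 11 were higher and 0 lower, among them Cstb (2.19 ± 0.52) and the cathepsin C gene Ctsc (2.59 ± 0.79, from 2 untreated reads).

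Plakins and desmosome anchors, the structures to which Evpl and Ppl attach, had 2 of 15 tested genes higher and 1 lower with benzamil (median 0.03). These counts were close to the shares over all tested genes (9.91% and 12.1%). Dst, a plakin of hemidesmosomes, rose by 1.58 ± 0.22 (edgeR adjusted p = 1.77e-05), and Dsg3, a desmosomal cadherin of lower layers, fell by 1.39 (± 0.23, edgeR adjusted p = 0.000126). Between DMSO and untreated skin 6 were higher and 2 lower, with Dst at -2.23 ± 0.26 and the desmosomal cadherin gene Dsg1b at 2.13 ± 0.47.

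Transcription regulators of cornification had 3 of 27 tested genes higher and 6 lower with benzamil (median 0.0012), beside 9.91% and 12.1% of all tested genes. Junb, a subunit of AP-1, fell by 2.31 (± 0.34, edgeR adjusted p = 3.67e-05), from 175 ± 44.2 to 30.6 ± 19.2 CPM, and Nfe2l2, which encodes the oxidative stress regulator NRF2, by 1.06 (± 0.22, edgeR adjusted p = 0.00113). With DMSO over untreated 5 were higher and 2 lower, with Cebpb, which encodes a C/EBP family factor, at 2.65 ± 0.54. Genes that attach the lipid envelope had 3 of 20 higher and 2 lower with benzamil (median 0.04), close to those shares. The fatty acid transporter gene Slc27a4 rose by 1.37 ± 0.24 (edgeR adjusted p = 0.000242) and the ceramide desaturase gene Degs1 fell by 1.09 (± 0.21, edgeR adjusted p = 0.000589). With DMSO over untreated 6 of the 20 were higher and 1 lower, with Degs1 at 1.68 ± 0.36 and Sdr9c7, an enzyme of ceramide binding to the envelope, at 2.73 ± 0.73 from 2 untreated reads.

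The genes most like a member over the 10 libraries were found by Pearson correlation of log2 CPM among 4088 genes, given as a description since the libraries share groups and depth. Lor was most like Lce1b (r = 0.96), Lce1a2 (0.956) and Lce1i (0.956), which encode late cornified envelope proteins of the same chromosome 3 cluster. Kprp was most like Lce1i (0.966), Ctnnbip1 (0.956) and Crct1 (0.953). Ppl was most like Rora (0.926), Myo6 (0.924) and Zmat2 (0.896), and Ivl most like Klf3 (0.988), Clca3a2 (0.977) and Rnf11 (0.973). The nearest gene was Ckap4 for Tgm1 (0.973), Nup214 for Tgm3 (0.932), Dnajc10 for Tgm5 (0.987) and H2bc4 for Evpl (0.986). Untreated libraries 1 and 2 held 1 and 0 reads of Tgm1, 4 and 0 of Tgm5, 2 and 2 of Ivl, and 2 and 5 of Evpl. How far such low values set these correlations was not tested. Among the members, Lor ran closest to Kprp (0.889) and Ppl (0.847), Evpl to Tgm3 (0.806) and Ivl (0.782), and Tgm1 ran opposite to Ppl (-0.855).

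A few limits bear on the calls with benzamil. With scaling by library totals only, the median of all genes was -0.26, and this left Tgm1 as the only member called, with Lor at 0.74 (adjusted p = 0.0637), Ppl at 0.52 (adjusted p = 0.0619) and Kprp at 0.70 (adjusted p = 0.102). Lor also missed without benzamil library 3 (0.90, adjusted p = 0.0518). In the authors' deposited table, Tgm1 (-1.86 ± 0.39, adjusted p = 0.00113), Lor (0.91 ± 0.25, adjusted p = 0.00437) and Ppl (0.75 ± 0.17, adjusted p = 0.000314) passed and Kprp did not (0.80 ± 0.29, adjusted p = 0.0544). For Tgm1, DESeq2 on the recovered reads gave -3.25 (DESeq2 Wald test, adjusted p = 0.000975). The smaller deposited size for Tgm1 is thus not directly comparable with the changes given here, and why was not tested.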

How the data were processed

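RNA of mouse skin, labelled ear skin throughout although the design text names back skin for the untreated control, was sequenced in 10 libraries. Each was made from 500 ng, per the labels, with a 3' mRNA kit that adds unique molecular identifiers. The submitters' processing notes name mm10, STAR, featureCounts and DESeq2. For tool versions, strand use and collapsing of molecular identifiers, the answer is not given in the sources used here.

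The authors deposited variance-stabilised log2 values in 2 separately normalized tables, and DESeq2 results with a mean signal, log2 fold changes and their errors, a Wald score, and the raw and adjusted p-value. The deposited count table holds counts on human gene identifiers only and entered no test; its values for the members are given as a description in the closing section.

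Whole reads were recovered by undoing the transform, whose lowest value stands for 0 reads: 100% of values in every library came out whole within 0.001 reads, and 39116 of 39116 shared DMSO values agreed. The 9779 genes in both tables entered 1 edgeR quasi-likelihood fit (edgeR 4.0.16, R 4.3.3) of group means, scaled by TMM after filterByExpr, which kept 5245 genes and 8 of 8 members. The fit called 1155, 964 and 210 genes in the 3 comparisons at a Benjamini-Hochberg adjusted p under 0.05. Standard errors are approximate, the absolute log2 fold change over the root of the F statistic. The script was tested on simulated data. Since the deposited unit is log2, limma (3.58.1) on those values and DESeq2 (1.42.0) on the reads were alternatives.

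The members and lists were chosen with earlier results of these data known. All members were named, and from each list the 2 genes with the smallest p in benzamil over DMSO and in DMSO over untreated, of which 1 is not reported here. Positions follow GENCODE M21 (mm10), in which 9698 of 9779 identifiers matched. Genes overlapping Tgm1, Tgm3 and Tgm5 in that annotation had no entry among the 9779.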

Additional observations from a re-analysis of the deposited data

Results flagged for a closer look

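Within a group of 4 libraries, 1 library stood far from the other 3 in 3 of the 22 sets of values looked at (8 members and 3 ratios in each treated group), where chance gives about 1 in 20. Lor was at 675 CPM in DMSO library 2, against 1753 to 1935 CPM in the other DMSO libraries. Evpl was at 198.5 CPM in benzamil library 4, against 127 to 134 CPM in the other benzamil libraries. Tgm5 was at 32.4 CPM in DMSO library 2, against 25.0 to 26.0 CPM in the others, a gap of a few reads.

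Counts for 5 of the 8 members also appeared in data not used for the tests, with PPL the most abundant. The deposited count table lists 61533 identifiers, all human and 0 from mouse, although the labels give mouse samples. Its row for PPL held 40, 9, 12 and 13 counts with DMSO, 38, 38, 16 and 14 with benzamil, and 5 and 6 in untreated skin, in the order of the replicate numbers. In CPM of that table this was 269.8 ± 66.1 with DMSO, 877 ± 74.9 with benzamil (SD, n = 4 and 4) and 481 and 686 in untreated skin, and every benzamil library (782 to 963) lay above every DMSO library (178 to 334). TGM1 had 18 counts in the DMSO group, in libraries 1 and 3, and 0 in the benzamil and untreated groups. TGM5 had 2 counts with DMSO and 5 with benzamil, EVPL 2 and 3, and LORICRIN 1 and 1, with 0 in untreated skin for each. IVL, KPRP and TGM3 had 0 counts in every library. The columns carry the same library names as the mouse tables, so these counts are no independent replicate, and how the table was made is not given in the sources used here.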

How the results depend on the processing

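Of 18 alternatives for benzamil over DMSO, Tgm1, Lor, Ppl and Kprp kept their direction in 18. Tgm1 kept its call in 18, Ppl in 17, Lor in 16 and Kprp in 10. With total counts alone 1 member was called in place of 4, and 248 genes were higher and 1009 lower (19.7% of calls higher, against 45.0%). Leaving out 1 library in turn gave 647 to 1080 genes and 2 to 4 members, lowest without DMSO library 1 for genes and without benzamil library 3 for members. Without benzamil libraries 3 and 4, a choice made after seeing the data, 584 genes were called, and 137 genes and 2 members (Ivl and Kprp) for benzamil over untreated. In DMSO over untreated, Ivl kept its call in 15 of 15 alternatives and Evpl in 11. DESeq2 on the reads and the authors' deposited result each called 1 member, Ivl; limma called 2910 genes (2369 higher) and, beside Ivl and Evpl, Tgm1 (1.34, adjusted p = 0.0236). Leaving out 1 library gave 433 to 930 genes, lowest without untreated library 1, and 1 to 2 members. For benzamil over untreated it gave 99 to 182 genes and 0 to 2 members, and no filter gave 2 members. The Tgm1/Tgm3 difference ranged from -3.44 to -2.72 and the Ivl/Lor difference from -1.47 to -0.98 without 1 library, each at p = 0.0571, the smallest that 3 libraries against 4 can give by the exact test. The replicate numbers share no stated source. After the group mean of each gene was taken out, log2 CPM of same-numbered DMSO and benzamil libraries correlated at 0.000688 to 0.0686. With the replicate number as a block 1059, 963 and 147 genes were called in the 3 comparisons, with 4, 2 and 1 members called. The causes of these shifts were not tested. Untreated depth, at 13.5 and 14.8 CPM per read, limits Tgm1, Tgm5, Ivl and Evpl most.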
